A study of Mus musculus with 6 samples.

Results

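The vessels of the embryonic dorsal root ganglion were followed through 33 genes that mark endothelial cells, the cells that line blood vessels. The genes were taken by symbol from a table of 17971 genes, and all 33 were found. The ganglia, clusters of sensory neurons and glia beside the spinal cord, were collected at E13.5 from male mouse embryos and profiled by RNA-seq. The 3 cKO libraries came from Wnt1-cre+/-;Ybx1fl/fl embryos, in which Cre recombinase under Wnt1 control deletes the floxed Ybx1 gene in the neural crest lineage. The 3 Ctrl libraries came from Ybx1fl/fl littermates. Both groups carry the floxed alleles and only cKO carries Cre, so Cre itself and the deletion of Ybx1 cannot be told apart. Whether a sample held 1 embryo or several is not stated in the sources used here. Replicate numbers run from 1 to 3 in both groups, and the 2 libraries of a number are called a pair here. The labels do not say that a pair shares a litter: the pairing was inferred from the sample codes and from the libraries' values.

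Endothelial cells arise from mesoderm and grow into the ganglia from outside, whereas the sensory neurons and their glia arise from the neural crest, where Wnt1-driven Cre acts. Vessel growth is guided by VEGF, which binds the receptors encoded by Kdr, Flt1 and Flt4, and by angiopoietins, which bind the receptor encoded by Tek. Transcription factors of the ETS and SOXF families hold the endothelial programme in place, and cadherins, claudins and immunoglobulin-type adhesion proteins seal the vessel wall. In a whole ganglion, fewer endothelial cells and less RNA per endothelial cell cannot be told apart.

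Depth was 16464264 to 17446385 estimated counts per library, and 14338 genes had enough counts to be tested, all 33 endothelial genes among them. Ybx1 (gene identifier 22608), an mRNA-binding cold-shock protein, stood at 811, 766 and 766 TPM (a level scaled by transcript length and by the total of the library) in Ctrl replicates 1 to 3 and at 118, 117 and 105 TPM in cKO replicates 1 to 3, so each library went with its label (log2 fold change -2.80, SE 0.10, edgeR adjusted p 8.42e-08). Which cells hold the Ybx1 reads left in cKO was not tested. Macrophage and red cell genes were highest in cKO replicate 1, as given beside the other cell types further on.

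The endothelial genes as a sum differed between cKO and Ctrl ganglia by less than the spread between replicates. Their summed level was 669, 691 and 657 TPM in Ctrl replicates 1 to 3 and 676, 703 and 632 TPM in cKO replicates 1 to 3. The highest and the lowest library were both cKO, so the Ctrl range lay inside the cKO range. The group means were 673 ± 17.5 and 670 ± 35.7 TPM (SD, n = 3), a ratio of 0.997. The summed level made up 0.0632% to 0.0703% of all TPM in a library.

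None of the 33 genes was called higher or lower in cKO by the quasi-likelihood test of edgeR with Benjamini-Hochberg adjustment over all genes tested (adjusted p under 0.05), where 0.481% of all genes were called, 0.112% as higher and 0.37% as lower. None was called with the replicate number as a block, where 5.33% of all genes were called, 1.76% as higher and 3.56% as lower. At an unadjusted p under 0.05, 0 of the 33 passed without the block, against 10.7% of all genes, and 2 with it, Cldn5 and Dll4, against 18.7%. The smallest adjusted p was 0.505 (Dll4) without the block and 0.191 (Cldn5) with it. The median log2 fold change of the 33 genes was -0.02, beside 0.004 over all genes tested, with 10 values above 0 and 23 below. DESeq2 and limma-voom also called none.

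How large a difference would still go with the values is given by the 95% intervals of the fold changes, taken gene by gene. For 31 of the 33 genes the interval lay within 1.5-fold in either direction, or 93.9%, beside 84.0% of all genes tested. With the replicate block it was again 31 genes, beside 85.7% of all genes. For 23 genes the interval lay within 1.25-fold, or 69.7%, beside 54.9% of all genes, and with the block for 24, or 72.7%, beside 65.0% of all genes. Esm1 and Dll4 were the genes whose interval reached beyond 1.5-fold, both on the side of lower values in cKO. The log2 fold changes of 30 genes were smaller than 0.15 in size, the exceptions being Cldn5, Dll4 and Esm1.

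**Figure D1:**
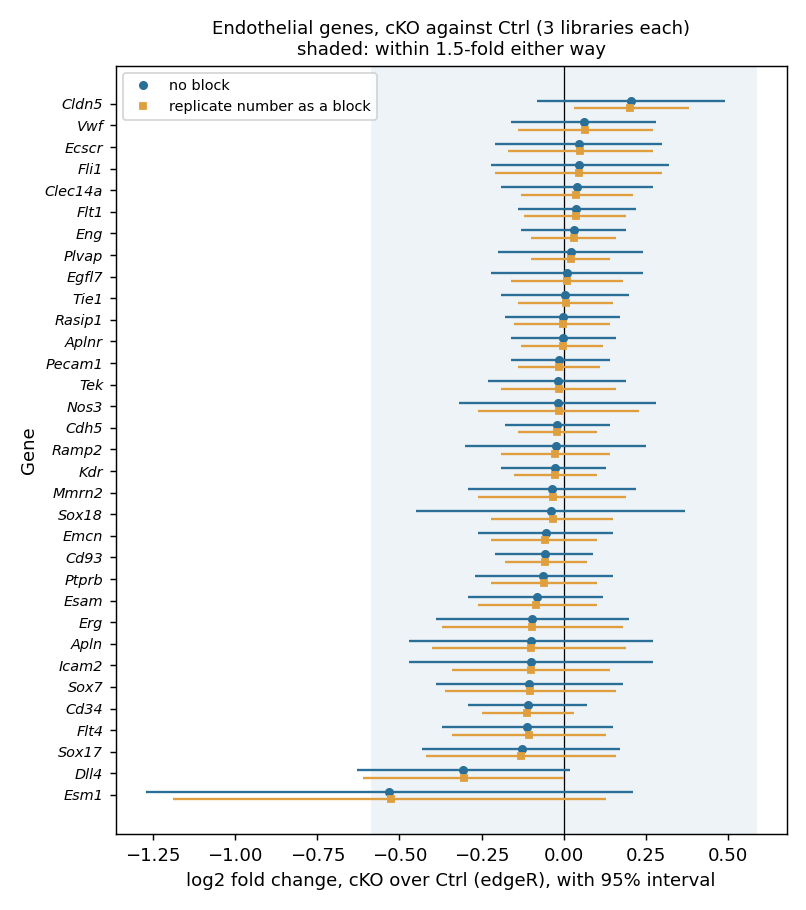
Log2 fold change of each endothelial gene, cKO over Ctrl, with its 95% interval, from the edgeR fit without a block (circles) and with the replicate number as a block (squares), n = 3 libraries per group. Of the 33 intervals without the block, 31 lie inside the shaded band of 1.5-fold, and those of Dll4 and Esm1 reach out of it to the left.

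The promoters of some of these genes were searched for short runs of letters. RefSeq promoter windows (GRCm38.p6) were matched for 16 of the 33 genes, with 20 start sites, and the 250 bases before each start were searched on both strands for AGGAAG, letters within the site of ETS factors such as Erg and Fli1, and for AACAAT, letters within the site of SOX factors. The ETS letters occurred in 10 of the 20 windows, beside 29.5% of all 32851 promoters of that length. The SOX letters occurred in 3 of the 20, beside 9.42% of all promoters. Egfl7 and Erg had several windows each, so the windows are not separate genes. A match is a run of letters and not a measured binding site, and no match says only that the letters are not in this window. The 4 windows below are shown because Emcn holds both kinds of letters, Flt1 holds 2 ETS matches, and Cldn5 and Dll4, the genes with the smallest adjusted p with and without the block, hold neither. Capitals mark the matches on either strand, which do not overlap each other. The Emcn and Flt1 windows belong to starts inside the annotated span of the gene. The windows, 5′ to 3′ on the strand of the gene, are chr3:137340828-137341077 (plus strand) for Emcn, chr5:147726012-147726261 (minus strand) for Flt1, chr16:18776597-18776846 (plus strand) for Cldn5 and chr2:119325534-119325783 (plus strand) for Dll4.
Emcn: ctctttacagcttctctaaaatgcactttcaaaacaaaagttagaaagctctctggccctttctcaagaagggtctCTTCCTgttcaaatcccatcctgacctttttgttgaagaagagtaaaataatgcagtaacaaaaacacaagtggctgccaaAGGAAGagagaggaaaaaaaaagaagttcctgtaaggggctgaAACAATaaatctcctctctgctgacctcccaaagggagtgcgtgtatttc
Flt1: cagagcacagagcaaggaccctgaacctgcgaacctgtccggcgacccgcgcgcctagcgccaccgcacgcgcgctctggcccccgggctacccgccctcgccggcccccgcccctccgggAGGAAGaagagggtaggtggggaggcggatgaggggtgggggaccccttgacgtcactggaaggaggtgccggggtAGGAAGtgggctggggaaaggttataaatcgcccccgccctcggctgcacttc
Cldn5: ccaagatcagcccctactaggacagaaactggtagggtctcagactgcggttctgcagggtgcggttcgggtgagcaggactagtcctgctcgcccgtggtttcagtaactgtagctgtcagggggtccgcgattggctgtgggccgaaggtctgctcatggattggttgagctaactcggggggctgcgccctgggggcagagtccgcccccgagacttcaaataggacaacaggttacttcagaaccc
Dll4: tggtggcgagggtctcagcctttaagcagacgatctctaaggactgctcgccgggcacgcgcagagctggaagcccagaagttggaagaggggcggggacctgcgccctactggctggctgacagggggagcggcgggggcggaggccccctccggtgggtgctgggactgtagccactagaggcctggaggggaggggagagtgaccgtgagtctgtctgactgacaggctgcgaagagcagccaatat

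Levels per transcript length ran from 76.2 TPM for Ramp2 to 1.18 TPM for Esm1 as means over the 6 libraries. The first 7 genes in that order, Ramp2, Cdh5, Emcn, Plvap, Pecam1, Cd34 and Egfl7, held 53.5% of the summed level. Means were above 10 TPM for 18 genes and below 5 TPM for 9. Among all genes tested, the members lay between the 7.25th and the 84.9th percentile of mean TPM, with a median at the 42.0th. Neighbours in the order were often closer than the spread between libraries: Pecam1 (39.9 TPM), Cd34 (39.2 TPM) and Egfl7 (37.1 TPM) had ranges that overlapped one another. The coefficient of variation between replicates, on TPM, had a median over genes of 9.63% in Ctrl and 6.58% in cKO, and was largest for Esm1, at 38.0% in Ctrl and 33.7% in cKO.

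**Figure D2:**
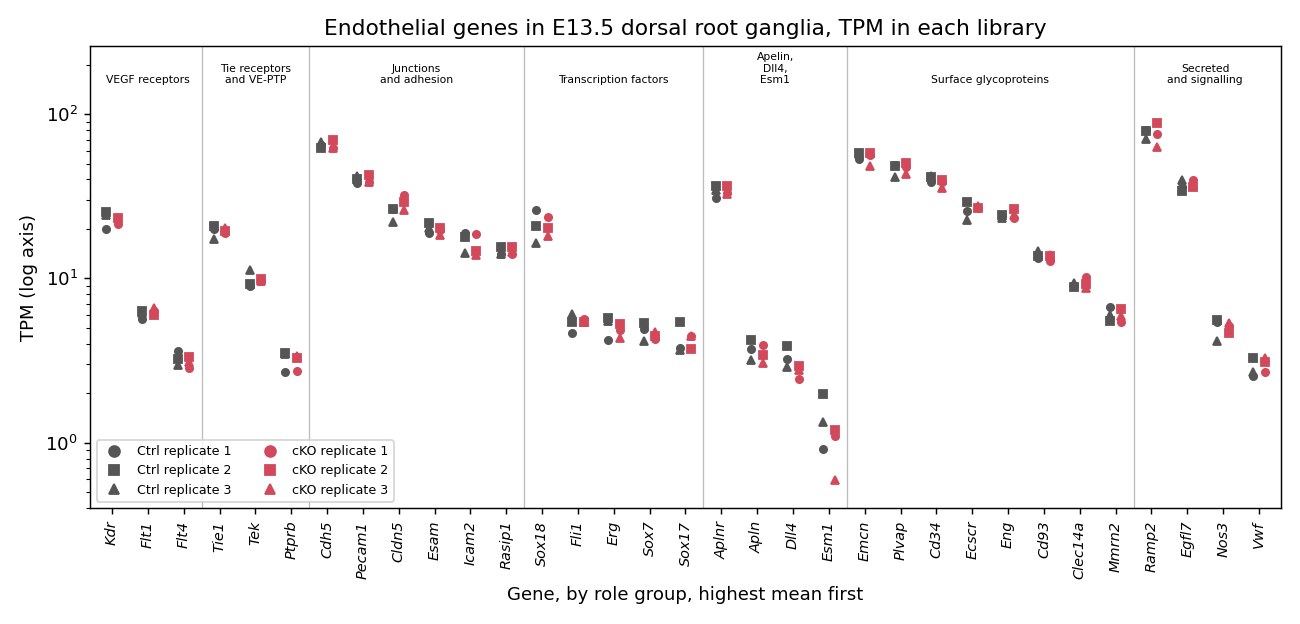
TPM of each endothelial gene in each of the 6 libraries on a log axis, grouped by role, with Ctrl in grey and cKO in red and one marker shape per replicate number. Points of both groups lie on top of each other for most genes, from Ramp2 at a mean of 76.2 TPM down to Esm1 at 1.18 TPM.

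Among the VEGF receptors, Kdr (gene identifier 16542, chromosome 5, 75932827 to 75979072, GRCm38), the main signalling receptor of VEGF on endothelial cells, was the most abundant. Kdr stood at 20, 25.4 and 24.2 TPM in Ctrl replicates 1 to 3 and at 21.5, 23.4 and 23.4 TPM in cKO replicates 1 to 3. Replicate 1 was the lowest library of either group in TPM, and the groups overlapped. In counts scaled to library size, cKO replicate 1 was instead the highest cKO library. The log2 fold change was -0.03 (SE 0.07, 95% interval -0.19 to 0.13, edgeR adjusted p 0.939). Flt1, which also binds VEGF and acts largely as a decoy, had a mean of 6.18 TPM and a log2 fold change of 0.04. Flt4, the receptor for VEGF-C that marks lymphatic and sprouting endothelium, had a mean of 3.19 TPM and a log2 fold change of -0.11 with an interval of -0.37 to 0.15.

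Among the Tie receptors, Tie1 (gene identifier 21846, chromosome 4, 118471191 to 118489849), an orphan receptor that modulates angiopoietin signalling, was the most abundant and stood at 19.9, 20.8 and 17.3 TPM in Ctrl and at 19.0, 19.3 and 20.3 TPM in cKO. All cKO values lay inside the Ctrl range, and the 95% interval of the log2 fold change ran from -0.19 to 0.20. Tek, the angiopoietin receptor itself, had a mean of 9.80 TPM and a log2 fold change of -0.02. Ptprb, the phosphatase that holds Tek in check, had a mean of 3.18 TPM and a log2 fold change of -0.06.

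The junction genes held the second most abundant member, Cdh5 (gene identifier 12562, chromosome 8, 104101613 to 104144504), which encodes VE-cadherin, the cadherin of endothelial junctions. Cdh5 stood at 64.7, 62.3 and 67.7 TPM in Ctrl and at 62.4, 69.1 and 62.1 TPM in cKO. The 2 groups covered nearly the same range. Its log2 fold change was -0.02 (SE 0.07, 95% interval -0.18 to 0.14, edgeR adjusted p 0.958). The adhesion molecule genes Pecam1 and Esam had log2 fold changes of -0.01 and -0.08, and Rasip1, which acts in vessel lumen formation, was at 14.6 TPM with an interval of -0.18 to 0.17. Icam2, a ligand of leukocyte integrins, had -0.10 with a wider interval of -0.47 to 0.27.

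Cldn5 (gene identifier 12741, chromosome 16, 18776847 to 18778262), the claudin of endothelial tight junctions, had the most positive fold change of the 33. It stood at 26.5, 26.6 and 22.1 TPM in Ctrl and at 32.0, 29.1 and 26.1 TPM in cKO. Each cKO library was above the Ctrl library of its pair, by 0.29, 0.10 and 0.19 on the log2 scale of scaled counts, while the groups overlapped. The log2 fold change was 0.20 (SE 0.13, 95% interval -0.08 to 0.49, edgeR adjusted p 0.652). With the replicate block the SE was 0.08 and the interval 0.03 to 0.38, at an unadjusted edgeR p of 0.027 and an adjusted p of 0.191, so the gene did not pass in either fit. Over all genes tested, 39.9% went the same way within all 3 pairs, as against 4 of the 33 endothelial genes: Cldn5 upward and Icam2, Dll4 and Cd93 downward.

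The transcription factor genes were low, apart from Sox18. Sox18 (gene identifier 20672, chromosome 2, 181669837 to 181671640), a SOXF factor of vessel and lymphatic development, stood at 26.2, 20.8 and 16.5 TPM in Ctrl and at 23.8, 20.4 and 18.2 TPM in cKO. In both groups replicate 1 was highest and replicate 3 lowest. The log2 fold change was -0.04, with an interval of -0.45 to 0.37 that narrowed to -0.22 to 0.15 with the replicate block (edgeR adjusted p 0.966 and 0.883). Its relatives Sox7 (4.64 TPM) and Sox17 (4.25 TPM) had log2 fold changes of -0.11 and -0.13. The ETS factor genes Erg (4.99 TPM) and Fli1 (5.45 TPM) had -0.10 and 0.05, and none of the 5 passed in either fit.

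Dll4 and Esm1, both tied to sprouting vessel tips, had the 2 lowest fold changes of the 33, and neither was called. Dll4 (gene identifier 54485, chromosome 2, 119325784 to 119335666), the Notch ligand of tip and arterial cells, stood at 3.23, 3.89 and 2.87 TPM in Ctrl and at 2.43, 2.94 and 2.79 TPM in cKO. Each cKO library was below the Ctrl library of its pair. The groups overlapped in TPM and were just separate in scaled counts, where the lowest Ctrl and the highest cKO library were both 5.02 CPM (counts scaled to library size) at this precision. Dll4 was the single member of 33 with separate groups in scaled counts, against 16.6% of all genes tested. Its log2 fold change was -0.31 (SE 0.15, 95% interval -0.63 to 0.02, edgeR unadjusted p 0.061, adjusted p 0.505), and with the block the adjusted p was 0.262.

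Esm1 (gene identifier 71690, chromosome 13, 113209659 to 113218104), a proteoglycan secreted by tip cells, had 17, 33 and 22 counts in Ctrl and 21, 20 and 10 counts in cKO, the fewest of any member. In TPM these were 0.91, 1.97 and 1.33 in Ctrl and 1.10, 1.19 and 0.59 in cKO. Pair 1 went upward and pairs 2 and 3 downward. The log2 fold change was -0.53 with an interval of -1.27 to 0.21 (edgeR adjusted p 0.649), the widest of the 33. Without Ctrl replicate 2 it was -0.24, without cKO replicate 3 it was -0.27, and without pair 1 it was -0.92 (edgeR adjusted p 0.153, and 0.0934 with the block). The tip ligand gene Apln (3.59 TPM) had -0.10 with an interval of -0.47 to 0.27. Aplnr (gene identifier 23796, chromosome 2, 85136360 to 85139923), the apelin receptor of venous and growing vessels, stood at 30.8, 36.3 and 34.6 TPM in Ctrl and at 33.1, 36.3 and 32.7 TPM in cKO, and its interval ran from -0.16 to 0.16.

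Among the surface proteins of the vessel wall, Emcn (gene identifier 59308, chromosome 3, 137341062 to 137431069), a sialomucin of veins and capillaries, was the most abundant and stood at 53.4, 57.7 and 57.1 TPM in Ctrl and at 56.7, 57.8 and 48.4 TPM in cKO. cKO replicate 3 was the lowest library and the other 5 lay close together. Its log2 fold change was -0.05 (SE 0.10, 95% interval -0.26 to 0.15, edgeR adjusted p 0.900). Plvap, which forms the diaphragms of permeable capillaries, stood at 48.7, 48.1 and 41.4 TPM in Ctrl and at 47.8, 50.4 and 43.2 TPM in cKO, with an interval of -0.20 to 0.24. Cd34, a sialomucin also found on blood progenitors, had a log2 fold change of -0.11 with an interval of -0.29 to 0.07. Eng, a TGF-beta co-receptor, had 0.03, the C-type lectin family genes Clec14a and Cd93 had 0.04 and -0.06, Ecscr had 0.05, and the matrix protein gene Mmrn2 had -0.04.

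Of the secreted and signalling genes, Ramp2 (gene identifier 54409, chromosome 11, 101246334 to 101248250), the partner of the adrenomedullin receptor, was the most abundant member. Ramp2 stood at 80.5, 78.4 and 70.2 TPM in Ctrl and at 76.0, 88.6 and 63.4 TPM in cKO. The highest and the lowest value were both cKO, and the interval of the log2 fold change ran from -0.30 to 0.25. Egfl7, a secreted vessel matrix factor, had a mean of 37.1 TPM and an interval of -0.22 to 0.24. Nos3, the endothelial nitric oxide synthase, had a mean of 5.05 TPM and an interval of -0.32 to 0.28. Vwf (gene identifier 22371, chromosome 6, 125552948 to 125686679), the clotting factor stored by endothelial cells and platelets, stood at 2.56, 3.29 and 2.70 TPM in Ctrl and at 2.71, 3.10 and 3.26 TPM in cKO, with a log2 fold change of 0.06 (interval -0.16 to 0.28).

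For a few members both groups had the same order of replicate numbers. Sox18, Icam2, Cldn5 and Plvap ran in the order replicate 1, 2 and 3 from highest to lowest in both groups on scaled counts. These 4 were all the members with the same order in both groups, or 12.1%, against 27.6% of all genes tested. For Sox18, Plvap, Ramp2, Cldn5 and Icam2 the SE without the block was over 1.5 times the SE with it, and 2.16 times for Sox18. For each gene, the log2 of the mean CPM plus 0.5 of the other 4 libraries was subtracted from that of the replicate 1 libraries. This difference was above 0 for 27 of the 33 genes, beside 50.2% of all genes tested. Across the 33 genes this difference went with transcript length, with shorter transcripts higher in pair 1 (Spearman rho -0.47 across genes, described without a test, since genes of the same 6 libraries are not independent replicates). The same rho across the 13981 tested genes with a known length was -0.51. It also went with the GC content of the transcript, with a Spearman rho of 0.49 across the 33 genes and 0.05 across all tested genes. The median length was 3422 bases for the 33 genes and 3476 for all tested genes with a known length. In TPM, which is scaled by length, the summed level of replicate 1 (669 in Ctrl and 676 in cKO) lay between replicates 2 and 3 of its group. Each group held 1 library of pair 1, and the part of length or GC content in any single gene's values was not tested.

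**Figure D3:**
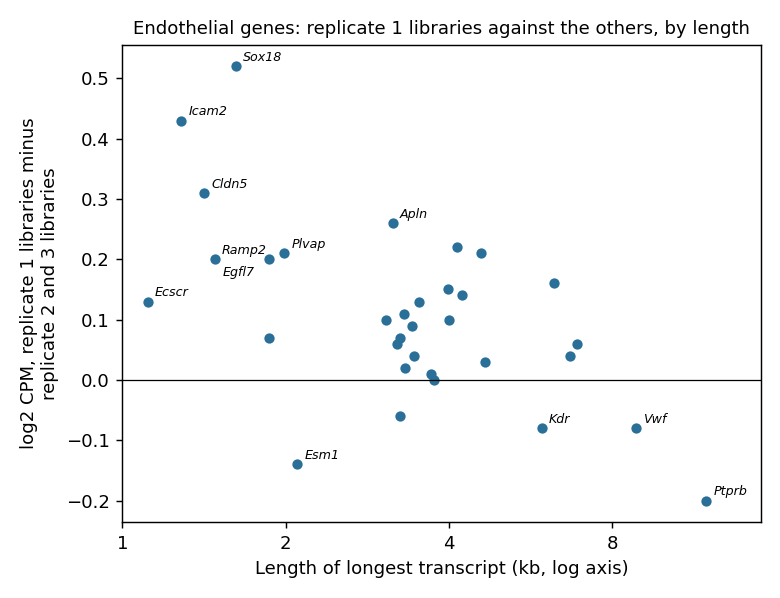
Difference in the log2 of mean CPM plus 0.5 between the 2 libraries of replicate number 1 and the 4 others for each of the 33 endothelial genes. It is drawn against the length of the longest GENCODE M21 transcript on a log axis. Sox18, Icam2 and Cldn5, all with short transcripts, lie highest at 0.52, 0.43 and 0.31, and the long Ptprb lies lowest at -0.20.

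A second list held 30 endothelial genes that are not among the 33. Of its 29 tested genes, 0 were called in either edgeR fit, with a median log2 fold change of -0.06 and summed levels of 358 to 408 TPM in Ctrl and 359 to 409 TPM in cKO. The most abundant were Tspan18 (139 TPM, log2 fold change 0.03) and Ets2 (27.2 TPM, -0.01). Tspan18 alone made up 121 to 158 TPM of the summed level per library. Scaled counts of the groups were separate for 3 of the 29 genes, against 16.6% of all genes tested. Podxl (-0.19, interval -0.34 to -0.04, edgeR adjusted p 0.332, and 0.0666 with the block) and Tmem204 (-0.29) were lower, and Lmo2 (0.15) was higher. Robo4, a guidance receptor of endothelial cells, had a log2 fold change of -0.13 with an interval of -0.33 to 0.06. The 10 tested genes of the barrier and its transporters gave 0 calls as well. Slc2a1, the glucose transporter also used by other cells, was at 47.2 TPM and Mfsd2a, a lipid transporter of barrier vessels, at 8.76 TPM, whereas Slco1c1 had 4 to 7 counts per library and was not tested.

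Among 8 tested genes of arterial identity 1 was called higher in both fits, Sema3g, a semaphorin. Sema3g stood at 9.15, 11.4 and 10.7 TPM in Ctrl and at 13.2, 15.3 and 18.4 TPM in cKO, with separate groups. The log2 fold change of Sema3g was 0.59 (SE 0.10, edgeR adjusted p 0.0300, and 0.000381 with the block). In the fit without the block, leaving out any 1 library except cKO replicate 1 ended the call, with adjusted p of 0.0558 to 0.137. The arterial genes Gja4, Gja5 and Efnb2 had log2 fold changes of 0.08, 0.15 and -0.12 and were not called in either fit. Cxcr4, a chemokine receptor, was lower with the replicate block (log2 fold change -0.34, edgeR adjusted p 0.151 without the block and 0.00985 with it), at 28.0 to 31.5 TPM in Ctrl and 22.5 to 25.6 TPM in cKO. None of 3 venous genes was called in either fit, and Nr2f2, a venous transcription factor, had 0.14 (interval -0.00 to 0.28). Of 5 tested lymphatic genes 2 were higher with the block and none without it, Reln (0.38, edgeR adjusted p 0.0693 and, with the block, 0.00479) and Prox1 (0.30, 0.305 and 0.0213). Lyve1, shared by lymphatic vessels and macrophages, had 0.20 and did not pass. The other lymphatic genes, Pdpn and Mmrn1, had -0.00 and -0.18 and were not called in either fit. Mmrn1 was lower in cKO within each pair, with separate groups in scaled counts. Nearly all of these genes are also used outside vessels, and which cells of the ganglion hold the transcripts was not tested.

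The signals that act on vessels were read next. Of 15 tested genes for VEGF and angiopoietin ligands, co-receptors and other vascular signals, 0 were called without the block and 1 with it. Vegfa, the main vessel growth factor, stood at 26.2, 39.1 and 38.4 TPM in Ctrl and at 26.7, 30.9 and 35.7 TPM in cKO, lowest in replicate 1 of both groups. Its log2 fold change was -0.16 (95% interval -0.41 to 0.08, edgeR adjusted p 0.684). Vegfb, Pgf and Angpt1 had -0.08, 0.00 and 0.03. Nrp1, a co-receptor for VEGF and for semaphorins that neurons also carry, was lower with the block (log2 fold change -0.23, edgeR adjusted p 0.347 without it, and -0.22, 0.00778 with it), from 139 to 177 TPM in Ctrl and 118 to 149 TPM in cKO. Of 20 genes of vascular Notch and BMP signalling, 0 were called without the block and 2 with it: Heyl, a Notch target, as higher (0.24, edgeR adjusted p 0.0232) and Id2, a BMP target, as lower (-0.23, 0.0288). Without the block their adjusted p was 0.256 and 0.455.

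The other cell types of the ganglion were measured by the same scale. Genes of pericytes, the cells wrapped around capillaries, gave 0 calls among 12 tested. Their summed level was 174 to 176 TPM in Ctrl and 172 to 182 TPM in cKO. The log2 fold changes of 10 of the 12 were negative and of 2 positive (median -0.06). Vtn, the most abundant in that sum (67.2 TPM), was among the positive ones (0.10). Fibroblast genes gave 0 calls among 10, at 822 to 962 TPM and 890 to 959 TPM. All 16 macrophage genes had positive log2 fold changes (median 0.43), with summed levels of 202 to 221 TPM in Ctrl and 233 to 327 TPM in cKO, highest in cKO replicate 1. One of the 16 was called: the log2 fold change of Mpeg1 was 0.82 (edgeR adjusted p 0.0446), a call that ended when any 1 library except cKO replicate 1 was left out (adjusted p 0.0607 to 0.168 by edgeR), and with the block C1qb was higher as well. Red cell genes ran from 19141 to 27541 TPM in Ctrl and from 16203 to 59084 TPM in cKO, again highest in cKO replicate 1, with 0 calls among 12. Of 6 tested megakaryocyte genes, 0 were called without the block and Gp1bb was lower with it. The log2 fold changes of these 6 genes were positive for 3 and negative for 3. Pf4, the most abundant of them (46.3 TPM), had 0.22. No listed gene of these cell types was at 0 in every library. The summed endothelial level of cKO replicate 1 (676 TPM) lay between those of the other cKO libraries, and without that library the ratio of cKO to Ctrl was 0.992. With the block 3 of 9 sensory neuron genes were lower and 6 of 10 glial genes were higher (median log2 fold changes in that fit -0.08 and 0.2), none of them called without it. The part that these other cell types have in the endothelial values was not tested.

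**Figure D4:**
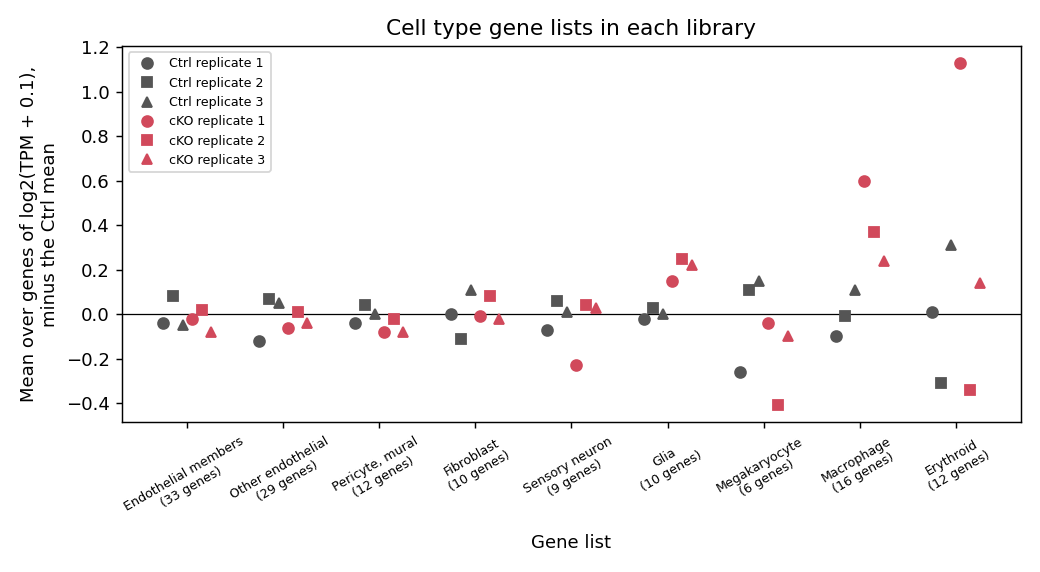
Mean over the tested genes of a list of log2(TPM + 0.1), minus the Ctrl mean, in each of the 6 libraries for 9 cell type lists, with Ctrl in grey and cKO in red. The endothelial members lie between -0.08 and 0.08, while macrophage genes reach 0.60 and red cell genes 1.13 in cKO replicate 1.

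Within pairs, the median log2 ratio of cKO to Ctrl over the 33 genes was 0.05, -0.05 and -0.07 in pairs 1, 2 and 3, beside 0.01, 0.00 and -0.00 over all genes tested. The number of genes above 0 was 20, 11 and 11. Ctrl replicate 2 was the highest library for 14 of the 33 genes and cKO replicate 3 for 1, while cKO replicate 3, Ctrl replicate 1 and Ctrl replicate 3 were each the lowest for 9. With pair 1 left out, the fit without the block called 731 genes (5.09% of those tested) and the fit with it called 1252 (8.72%), and none was an endothelial member. The count of 1252 was the largest of any fit run. Both of these fits rest on pairs 2 and 3 only. The blocked one then had few values of its own from which to estimate the spread of a gene.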

How the data were processed

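RNA-seq of 3 cKO and 3 Ctrl libraries was compared. Trizol RNA went into mRNA libraries, per the labels' protocols, and the sources used here do not say whether reads were counted by strand. The submitters' processing notes name the genome GRCm38 (mm10) and the tools RSEM 1.3.1, HISAT2 2.2.1 and Bowtie2 2.4.5, with no roles. The authors deposited estimated counts per gene, not normalized (88.4% to 88.6% of values per library were whole), and also TPM, used here for levels. The deposited FPKM values enter no result.

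Estimated counts were rounded, filtered by filterByExpr (14338 of 17971 genes kept) and scaled by TMM. Under R 4.3.3, edgeR 4.0.16 gave two-sided robust quasi-likelihood p-values, adjusted by Benjamini-Hochberg over all genes tested, with calls at 0.05. SEs came from the fold change and F statistic. The 95% intervals used edgeR's total degrees of freedom (residual plus those borrowed across genes), per gene and unadjusted. CPM uses TMM library sizes, and ratios within pairs add 0.5 CPM. On simulated counts for the same comparison over 14338 genes, the fit without the block recovered 56% of 1.3-fold, 96% of 1.5-fold and 100% of 2-fold changes among genes of at least 5 CPM, with 3.3% false calls. Those simulated counts had the same relative spread for every gene and no effect of replicate number. The libraries differ in both, so these shares need not hold for them. The controls are described as littermates, codes of samples with 1 number begin alike, and their deviations from the group means correlated at 0.328, 0.205 and 0.184, so the block is a pairing drawn from the codes and the data. Results are from the unblocked model unless stated. P-values set the difference between groups against the spread between these samples, estimated with information borrowed across genes. Alternatives were DESeq2 1.42.0, limma-voom and limma on TPM (limma 3.58.1), other scalings and filters, the block, and leaving out libraries or pairs.

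The members and lists were chosen with earlier results of these data known. Members were described in full if called in a fit, most abundant in their role group, or among the 2 most positive and 2 most negative. From other lists up to 4 called genes or the 2 most abundant were eligible, and further genes were named after their values were seen. Lists were described by counts and medians. Gene positions and promoters are from RefSeq (GRCm38.p6), transcript lengths from GENCODE M21. Figures used matplotlib 3.10.9.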

Additional observations from a re-analysis of the deposited data

How the results depend on the processing

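The count of called endothelial genes was 0 in all 23 alternative fits: other scalings, filters and tests, the replicate block with 3 scalings, and each library or pair left out. The lowest adjusted p of any member over them was 0.0934, for Esm1 in the blocked fit without pair 1. The median log2 fold change of the 33 genes was -0.03 with the replicate block. Over all alternatives it ran from -0.08 (without cKO replicate 1) to 0.01 (without Ctrl replicate 1 or cKO replicate 3). No alternative moved this median from its main value of -0.02 by more than its replicate SD, 0.071. The ratio of summed TPM ran from 0.973 to 1.03 on leaving out single libraries, and was 0.98 as a mean of logs and 0.986 on scaled counts. Of 759 single-gene values, 728 moved by less than the SE of the gene. Outside the members, the log2 fold change of Hba-a1 and the log2 fold change of Hba-a2, uncalled at 0.47 and 0.56 over all libraries, were -0.21 each in the blocked fit without pair 1 (edgeR adjusted p 0.000403 and 0.000805). The cause was not tested. The block changed no call of a member. Depth limits Esm1 most, with 10 to 33 counts per library, while no other member had under 81.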
